A study of Mus musculus with 12 samples.

Results

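The NRF2 antioxidant genes are 10 genes of one stress-response circuit, namely the transcription factor gene Nfe2l2, its inhibitor Keap1 and the target genes Slc7a11, Gclc, Gclm, Txnrd1, Srxn1, Nqo1, Hmox1 and Osgin1. They were chosen by symbol, and all 10 were found among the 35453 rows of the mRNA table. The samples were tumours of 4T1 cells, a metastatic line derived from a mammary carcinoma of the mouse, carried by mice of the Balb/c strain. In the stress group the mice were held in restraint for 2 hours daily over 28 days, and in the control group the tumour-bearing mice were left untreated. All tumours were collected 35 days after inoculation, and each group had 3 mRNA libraries. Each library was made from whole tumour, so that tumour cells and host cells contribute to every value, and fewer cells of a type cannot be told apart from less RNA per cell. The labels do not say whether the 3 tumours of a group came from separate mice, so the p-values measure the spread between these libraries.

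NRF2, the protein product of Nfe2l2, is made continuously and, in unstressed cells, is held by KEAP1 for ubiquitination and degradation by the proteasome. Oxidants and electrophiles modify KEAP1, NRF2 then escapes degradation, pairs with a small MAF protein and binds antioxidant response elements near genes for glutathione synthesis, thioredoxin recycling, quinone reduction and haem breakdown. Because this control acts mainly on protein stability, mRNA of the target genes is a commoner readout of the pathway than mRNA of Nfe2l2 itself. In tumours the pathway is known for protecting cells against oxidative damage and some drugs.

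The core of the antioxidant response element was searched as TGACNNNGC on both strands of RefSeq promoters (build GRCm38.p6, 250 bases before to 50 bases after each gene's start). It was found in 12.4% of all 32851 promoters in the table. Of the members, 8 matched the table with 10 promoters (Nfe2l2, Keap1, Nqo1, Gclm, Srxn1, Txnrd1, Slc7a11 and Osgin1), and 4 of these promoters held the core. The matching stretches are printed here because this element is the DNA feature through which NRF2 acts, with the core in capitals and the strand that carries it read 5′ to 3′.
Nfe2l2 (chr2:75704885-75704913, minus strand): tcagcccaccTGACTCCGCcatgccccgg
Srxn1 (chr2:152105542-152105570, minus strand): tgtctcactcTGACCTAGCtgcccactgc
Gclm (chr3:122245413-122245441, minus strand): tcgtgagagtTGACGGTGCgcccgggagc
Txnrd1 (chr10:82859104-82859132, minus strand): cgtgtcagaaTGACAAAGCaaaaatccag
In Txnrd1 the core lay in 1 of 3 promoters, at position -92 from that start, in Gclm it lay at -134, in Nfe2l2 at -240, and in Srxn1 at 29 bases into the transcript. A match is a description of these letters and not of binding, and elements outside the windows were not searched.

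The deposited mRNA values were taken as normalized and on a log2 scale, so 1 unit was read as a doubling. No source used here states their base or normalization, and their sequencing depth is unknown. The test covered the 14098 genes whose log2 value averaged 4 or more, and 5 of them (0.0355%) passed limma's adjusted p threshold of 0.05 between stress and control. All 6 epithelial markers of tumour cells (Epcam, Cdh1, Krt7, Krt8, Krt18 and Krt19) were detected. Their summed level, as powers of 2, was 38400 to 42900 in stress and 38400 to 42300 in control. Of these markers 4 stood higher and 2 lower in stress, and Krt7 was lower with separate groups (-0.36 ± 0.13, limma adjusted p = 0.221). Among host cells, summed neutrophil markers did not overlap between the groups (2310 to 3760 in stress, 1660 to 1860 in control; 7 of 8 tested markers higher). Endothelial markers did not overlap either (3620 to 4570 in stress, 4800 to 5490 in control; 6 of 6 lower). Adipocyte markers did not overlap (408 to 538 in stress, 566 to 923 in control; 2 of 3 tested markers lower). The sums of macrophage, fibroblast, skeletal muscle, erythroid and T and NK cell markers overlapped, with 9 of 9 tested skeletal muscle markers and 7 of 8 fibroblast markers lower in stress. No marker of any list was listed at 0, although Ly6g, Marco and the adipocyte markers Adipoq, Plin1 and Cidec lay below the filter. The part of these shifts in the values that follow was not tested.

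The members did not move as one block. In stressed tumours 4 of the 10 stood higher and 6 lower, and none passed the threshold over all genes in limma, against 0.0213% of all tested genes called higher and 0.0142% called lower. The spread of differences ran from Txnrd1 at -0.21 to Hmox1 at 0.72, with a median of -0.040, against 0.0014 over all tested genes. At an unadjusted p under 0.05 there were 3 members (Nfe2l2 and Hmox1 higher, Txnrd1 lower), against 17.4% of all tested genes (8.26% higher, 9.15% lower). The same 3 were the members whose groups did not overlap, against 24.3% of all tested genes (12.1% higher, 12.3% lower). These shares rest on 10 genes, and for one gene in 3 libraries against 3 the smallest p that exact permutation allows is 0.1.

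**Figure D1:**
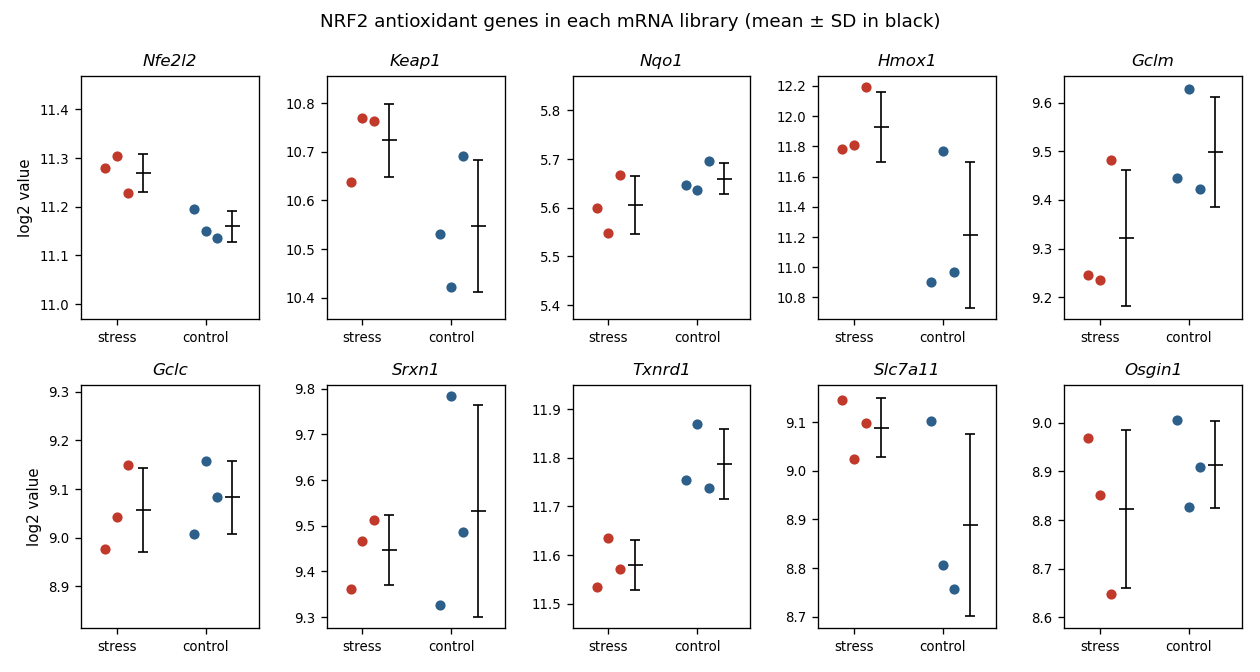
Log2 value (vertical axis, a separate range in each panel) of the 10 members in the 3 stress libraries (red) and the 3 control libraries (blue), with mean and SD in black. Nfe2l2 and Hmox1 have every stress library above every control library, Txnrd1 has every stress library below, and the groups overlap in the other panels.

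Nfe2l2, on the minus strand of chromosome 2 (75675513 to 75704641), encodes NRF2. It had log2 values of 11.28, 11.30 and 11.23 in the stress libraries, against 11.19, 11.15 and 11.13 in the control libraries. The values were tightly grouped, and the highest control lay just below the lowest stress library. The difference was 0.11 ± 0.05 (SE, n = 3 each; 1.08-fold, limma adjusted p = 0.281), with a 95% interval of 0.0018 to 0.22, and it did not pass the threshold. Keap1, on chromosome 9 (21229730 to 21239361), encodes the adaptor that marks NRF2 for degradation. Its log2 values were 10.64, 10.77 and 10.76 in stress, against 10.53, 10.42 and 10.69 in control. Control replicate 3 lay above stress replicate 1, so the groups overlapped. The difference was 0.18 ± 0.08 (limma adjusted p = 0.305). It was 0.11 without control replicate 2 and 0.25 without control replicate 3. Both the factor and its inhibitor thus had higher group means in stressed tumours, and neither was called.

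Glutathione, the main small antioxidant thiol of the cell, depends on cystine uptake and on the joining of glutamate to cysteine. Slc7a11, on chromosome 3 (49892526 to 50443614), encodes the cystine and glutamate exchanger xCT. It had log2 values of 9.15, 9.02 and 9.10 in stress, against 9.10, 8.81 and 8.76 in control. Control replicate 1 lay among the stress libraries, while the other controls were lower than all of them. The difference was 0.20 ± 0.10 (limma adjusted p = 0.341, 95% interval -0.028 to 0.43). It was 0.070 with a skeletal muscle covariate and 0.31 without control replicate 1.

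Gclc and Gclm encode the catalytic and the modifier subunit of glutamate-cysteine ligase, which catalyses the rate-limiting step of glutathione synthesis. Gclm, on chromosome 3 (122245557 to 122270732), had log2 values of 9.25, 9.24 and 9.48 in stress, against 9.45, 9.63 and 9.42 in control. Stress replicates 1 and 2 were below every control, and stress replicate 3 was among them, with a difference of -0.18 ± 0.09 (limma adjusted p = 0.354), or -0.11 without control replicate 2. Gclc, on chromosome 9 (77754535 to 77794485), had log2 values of 8.98, 9.04 and 9.15 in stress, against 9.01, 9.16 and 9.08 in control. The groups were interleaved, and the difference of -0.026 ± 0.07 had a 95% interval of -0.19 to 0.14 (limma adjusted p = 0.878). Its sign turned without control replicate 2 (0.011), without stress replicate 1 (0.014) and after median centring over all kept genes (0.020), while leaving out control replicate 1 gave -0.064 and leaving out stress replicate 3 gave -0.072. In the full set of libraries the transporter's difference was thus above 0 and those of both ligase subunits below it, none of them called.

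Txnrd1, on chromosome 10 (82833951 to 82897712), encodes the cytosolic selenoenzyme that recycles thioredoxin with NADPH. Its log2 values were 11.53, 11.64 and 11.57 in stress, against 11.75, 11.87 and 11.74 in control. Every stress library lay below every control library. The difference of -0.21 ± 0.06 (SE, n = 3 each) corresponds to a level 1.15-fold lower in stress, with a 95% interval of -0.34 to -0.076. It had the smallest p of the members and did not pass the threshold over all genes (limma adjusted p = 0.154). Srxn1, on chromosome 2 (152105516 to 152111376), encodes sulfiredoxin, which repairs overoxidized peroxiredoxins. It had log2 values of 9.36, 9.47 and 9.51 in stress, against 9.33, 9.78 and 9.49 in control. Control replicate 2 was the highest and control replicate 1 the lowest of all 6 libraries, so that the difference of -0.085 ± 0.11 lay inside the control spread (limma adjusted p = 0.736). It came to 0.041 when control replicate 2 was left out, to -0.19 when control replicate 1 was, to -0.042 when stress replicate 1 was, and to -0.017 after adding a skeletal muscle covariate.

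Hmox1, on the plus strand of chromosome 8 (75093621 to 75100589), encodes the inducible haem oxygenase, which breaks haem down to biliverdin, carbon monoxide and iron. It showed the widest range of any member, with log2 values of 11.78, 11.81 and 12.19 in stress, against 10.90, 11.77 and 10.97 in control. Control replicates 1 and 3 were well below all stress libraries, while control replicate 2 was just below the lowest of them. The mean was 11.93 ± 0.23 in stress and 11.21 ± 0.48 in control (SD, n = 3 each). The difference of 0.72 ± 0.24 (SE; 1.64-fold) had a 95% interval of 0.14 to 1.29 and an adjusted p of 0.214 in limma. Only 0.631% of tested genes had a larger absolute difference, but by p it stood only at rank 1408 of the 14098.

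Nqo1, on chromosome 8 (107388225 to 107403206), encodes a quinone reductase and is a widely used NRF2 reporter gene. Its log2 values were low in every library, at 5.60, 5.55 and 5.67 in stress, against 5.65, 5.64 and 5.70 in control. The groups overlapped and the difference was -0.054 ± 0.05 (limma adjusted p = 0.632, 95% interval -0.18 to 0.073). After quantile normalization it was -0.0050, and without single libraries it ran from -0.085 to -0.026. Osgin1, on chromosome 8 (119434124 to 119446256), encodes an oxidative stress-induced growth inhibitor. It had log2 values of 8.97, 8.85 and 8.65 in stress, against 9.01, 8.83 and 8.91 in control, with a difference of -0.091 ± 0.09 (limma adjusted p = 0.641). Stress replicate 3 was the lowest library, and the rest were interleaved. Without stress replicate 3 the difference was -0.0043, without stress replicate 1 it was -0.16, and without control replicate 1 it was -0.045; it was also smaller with a skeletal muscle covariate (-0.050).

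**Figure D2:**
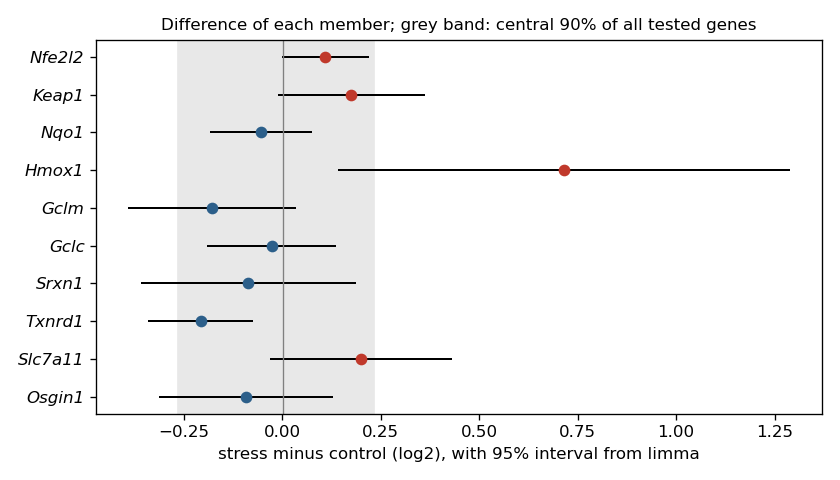
Stress minus control difference (log2, horizontal axis) of each member with its 95% interval from limma; the grey band holds the central 90% of differences of all tested genes and the line marks their median of 0.0014. Hmox1, at 0.72, is the one member outside the band, and the intervals of Nfe2l2, Hmox1 and Txnrd1 leave out 0 before adjustment for multiple testing.

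Per kilobase of annotated exon, members differed far more from each other than between the groups. On the log2 scale the level per kilobase was 11.12 for Hmox1 in stress and 10.41 in control, the highest of the members, followed by Nfe2l2 (9.35 in stress, 9.24 in control), Txnrd1 (8.76 and 8.96) and Keap1 (8.49 and 8.32). Srxn1 (7.95 in stress, 8.04 in control), Osgin1 (7.40 and 7.50), Gclc (7.14 and 7.17) and Gclm (6.67 and 6.85) came next. Slc7a11 (5.29 in stress, 5.09 in control) and Nqo1 (4.97 and 5.02) were lowest, and in control they differed by less than the SD of Slc7a11. The order was the same in both groups. These levels use the length of all annotated exons joined rather than the length of a single transcript. They hold only if the deposited values were not already scaled by gene length, which no source used here states. The annotated spans of 5 members (Nfe2l2, Keap1, Gclm, Txnrd1 and Slc7a11) overlap other genes, and no source used here says whether the quantification used strand.

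The libraries within a group differed in a way that several members shared. Control replicate 2 was the highest control for 5 members (Hmox1, Gclm, Gclc, Srxn1 and Txnrd1), and stress replicate 3 was the highest stress library for 5 (Hmox1, Gclm, Gclc, Srxn1 and Nqo1). Both held for 4 of the 10 members (Hmox1, Gclm, Gclc and Srxn1), against 12.7% of all tested genes. Slc7a11 and Osgin1 went another way, with control replicate 1 and stress replicate 1 highest in their groups. Control replicate 2 and stress replicate 3 were both highest in their groups for 12 of 12 hypoxia target genes. The same held for 58.3% of ATF4 targets, 30% of NRF2 partners and regulators, 24.3% of other NRF2 targets and 0% of NADPH oxidase subunits. The hypoxia list includes Pfkfb3, which drives glycolytic flux, and Pdk1, which restrains pyruvate oxidation in mitochondria. Hmox1 is known as a target of hypoxia signalling as well as of NRF2. All 12 hypoxia targets stood higher in stress, with a median difference of 0.64, and none was called (limma, smallest adjusted p = 0.0647). In limma 10 had an unadjusted p under 0.05, against 8.26% of all tested genes in that direction. The groups did not overlap in 8, against 12.1% of all tested genes in that direction. Pfkfb3 was 0.59 ± 0.07 higher and Pdk1 0.43 ± 0.08 higher. The part of hypoxia in the Hmox1 values was not tested.

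NRF2 binds DNA only with partners, and further proteins set its stability. Of 20 partners and regulators 13 stood higher and 7 lower in stress, with a median of 0.075; none was called in limma, 4 had an unadjusted p under 0.05 (against 17.4% of all tested genes), and the groups did not overlap in 6 higher and 3 lower genes (against 12.1% higher and 12.3% lower of all tested genes). The same shares of all tested genes are the background of the counts in the lists that follow. Some genes belong to several lists, so the counts of different lists are not separate observations. For example, Fth1, Ftl1, Blvra, Blvrb and Slc48a1 count both as other NRF2 targets and as haem and iron genes. Maff, a small MAF protein, had log2 values of 9.21, 9.27 and 9.61 in stress, against 8.82, 9.07 and 8.97 in control (0.40 ± 0.12, adjusted p = 0.166). Every stress library lay above every control library. Sqstm1, which encodes p62, an autophagy receptor that binds KEAP1 and is itself an NRF2 target, had 12.95, 12.85 and 13.28 in stress, against 12.65, 12.68 and 12.55 in control (0.40 ± 0.11, adjusted p = 0.159). Here too the groups were separate, and stress replicate 3 stood highest.

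The other small MAF genes and the repressor were chosen after their values were seen. Mafk was 0.22 ± 0.07 higher with separate groups (adjusted p = 0.194), and Mafg 0.19 ± 0.08 higher with overlapping groups (adjusted p = 0.287). Bach1, a repressor that competes for the same elements and is displaced by haem, was 0.13 ± 0.07 higher with overlapping groups (adjusted p = 0.373). On the lower side, separate groups were found for Trim16, a ubiquitin ligase linked to NRF2 stability in human cells (-0.13 ± 0.06, adjusted p = 0.349). They were also found for Park7, which encodes DJ-1 (-0.064 ± 0.05, adjusted p = 0.524), and for Dpp3 (-0.063 ± 0.05, limma adjusted p = 0.531). Nfe2l3 had the lowest difference of the list, with overlapping groups (-0.21 ± 0.08, limma adjusted p = 0.271). Dpp3 and Nfe2l3 were also named after their values were seen. The group means of all 3 small MAF genes and of Bach1 were thus higher in stress, and none was called.

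**Figure D3:**
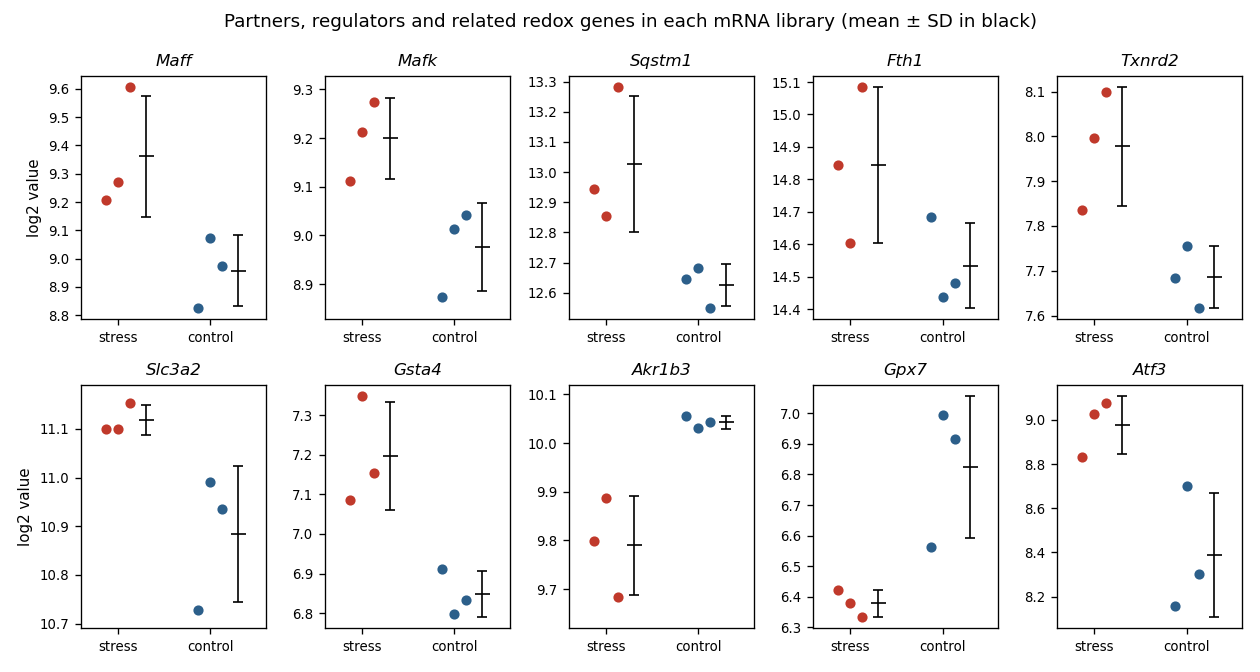
Log2 value (vertical axis, a separate range in each panel) of 10 partner, regulator and related genes in the 3 stress libraries (red) and the 3 control libraries (blue), with mean and SD in black. The groups are separate in every panel except Fth1, where stress replicate 2 (14.60) is below control replicate 1 (14.68). Most of these genes were named for separate groups, and none passed the threshold over all genes.

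Other NRF2 target genes showed no common direction. Of 42 listed, 37 passed the filter; 20 stood higher and 17 lower, with a median of 0.0032, and none was called in limma (8 at an unadjusted p under 0.05). The groups did not overlap in 5 higher and 5 lower genes, a share close to the 24.3% of all tested genes. Gsta4, a glutathione transferase for lipid peroxidation products, had log2 values of 7.09, 7.35 and 7.16 in stress, against 6.91, 6.80 and 6.83 in control (0.35 ± 0.08, adjusted p = 0.135). Gstt1, of another transferase class, was 0.20 ± 0.08 higher (adjusted p = 0.269). The stress libraries of both lay above all controls.

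On the lower side, Akr1b3, an aldose reductase, had 9.80, 9.89 and 9.68 in stress, against 10.06, 10.03 and 10.04 in control (-0.25 ± 0.06, adjusted p = 0.140). Its controls were nearly equal, and all stress libraries were below them. Gstm2, a transferase of the mu class, stood lower by -0.28 ± 0.09 (adjusted p = 0.197). Transferase genes thus appeared on both sides.

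The wider glutathione genes were evenly split, with 9 of 18 tested higher and 9 lower, a median of -0.0029, none called in limma and 5 at an unadjusted p under 0.05. Slc3a2, the heavy chain that carries xCT to the cell surface, had log2 values of 11.10, 11.10 and 11.15 in stress, against 10.73, 10.99 and 10.94 in control (0.23 ± 0.07, adjusted p = 0.189). The groups were separate for Slc3a2, as in 3 higher and 2 lower of the 18 genes, and overlapping for Slc7a11. Glrx, a glutaredoxin, was 0.25 ± 0.09 higher (adjusted p = 0.217). Gpx7, a peroxidase of the endoplasmic reticulum, had 6.42, 6.38 and 6.33 in stress, against 6.56, 6.996 and 6.92 in control (-0.45 ± 0.11, adjusted p = 0.146). Glo1, a glyoxalase, stood at -0.078 ± 0.04 (adjusted p = 0.392). Gpx3, a secreted peroxidase named after its values were seen, had the lowest difference of the list, at -0.80 ± 0.30, with control replicate 1 among the stress libraries (adjusted p = 0.244).

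Among the thioredoxin, peroxiredoxin, superoxide dismutase and catalase genes, 8 of 20 stood higher and 12 lower (median -0.025), none was called in limma and 3 had an unadjusted p under 0.05. Txnrd2, the mitochondrial thioredoxin reductase, had log2 values of 7.84, 7.997 and 8.10 in stress, against 7.68, 7.76 and 7.62 in control (0.29 ± 0.08, adjusted p = 0.166). Its groups were separate in the opposite direction to those of the cytosolic Txnrd1, with every stress library above every control library. Prdx6, a peroxiredoxin that reduces phospholipid peroxides, stood at -0.11 ± 0.05 (adjusted p = 0.283) and Prdx4, of the endoplasmic reticulum, at -0.076 ± 0.05 (adjusted p = 0.464). Separate groups, for which Txnrd2, Prdx6 and Prdx4 were named, were found in 1 higher and 2 lower of the 20 genes.

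Of the 15 haem and iron genes, which cover haem synthesis, uptake and breakdown and iron storage and transport, 11 stood higher and 4 lower (median 0.041), none was called in limma and 1 had an unadjusted p under 0.05. That gene was Fth1, the ferritin heavy chain, with log2 values of 14.84, 14.60 and 15.08 in stress, against 14.68, 14.44 and 14.48 in control (0.31 ± 0.13, adjusted p = 0.273). The ferritin light chain gene Ftl1 was 0.16 ± 0.09 higher (adjusted p = 0.383), and the constitutive haem oxygenase gene Hmox2 differed by 0.0024 ± 0.06 (95% interval -0.14 to 0.15, adjusted p = 0.988). These 3 were named after their values were seen, and ferritin genes have processed pseudogenes that can share their reads. Slc48a1, a haem transporter, was 0.11 ± 0.06 higher (adjusted p = 0.367) and Ncoa4, the receptor for ferritin breakdown, 0.078 ± 0.05 higher (adjusted p = 0.427), while Alas1, the first enzyme of haem synthesis, stood at -0.14 ± 0.06 (adjusted p = 0.319). These genes were named for separate groups, found in 2 higher and 1 lower of the 15, against 24.3% of all tested genes. For Slc48a1 the lowest stress library (9.9698) was barely above the highest control library (9.9697). Markers of erythroid cells, a source of haem in tissue, had sums of 1850 to 2230 in stress. In control replicates 1, 2 and 3 these sums were 1480, 3660 and 1680, so the groups overlapped through control replicate 2. Macrophage markers had overlapping sums of 19500 to 26400 in stress and 21900 to 23700 in control. The part of these cells in the Hmox1 values was not tested.

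ATF4, the effector of the integrated stress response, shares Slc7a11 as a target with NRF2. Of 12 ATF4 pathway genes 9 stood higher and 3 lower (median 0.086), none was called in limma and 5 had an unadjusted p under 0.05. Atf3, a stress-induced repressor, had log2 values of 8.83, 9.03 and 9.08 in stress, against 8.16, 8.70 and 8.30 in control (0.59 ± 0.14, adjusted p = 0.138). Trib3, a pseudokinase, was 0.23 ± 0.06 higher (adjusted p = 0.162). Phgdh (-0.16 ± 0.05, adjusted p = 0.215) and Psat1 (-0.16 ± 0.08, adjusted p = 0.343), enzymes of serine synthesis, were lower. All 4 were named for separate groups, which were found in 4 higher and 2 lower of the 12 genes.

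**Figure D4:**
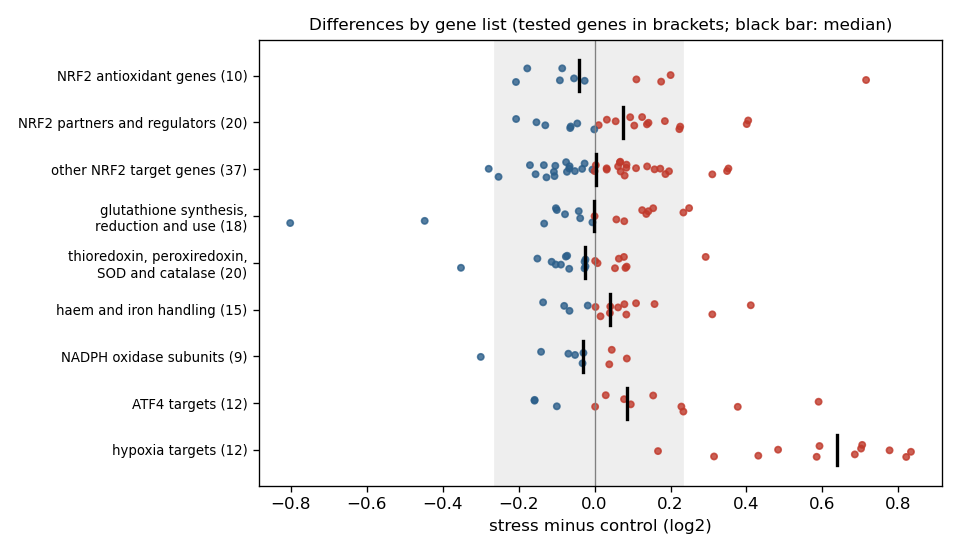
Stress minus control difference (log2, horizontal axis) of every tested gene in 9 lists, one dot per gene (red above 0, blue below), with the list median as a black bar, the median of all tested genes as a grey line and the central 90% of all tested genes as a grey band. Medians run from -0.040 for the NRF2 antioxidant genes to 0.64 for the hypoxia targets, whose 12 dots all lie above 0.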

How the data were processed

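The deposited mRNA table holds log2 values normalized by the authors, fractional and from -1.966 to 17.85, although it is named as raw counts. Of tools, bcl2fastq and kallisto 0.46.1, with build mm10, appear in the submitters' processing notes; no source used here says how kallisto's output became log2 values. Base 2 was assumed (powers of 2 summed to 1.69e+07 to 1.77e+07 per library). The median range over 6 libraries was 0.0773 at means of 2 to 3 and 0.262 at 5 to 6 and at 9 to 10. Fold changes of genes at the low end, below the filter, may thus be understated. The equal ranges do not show whether genes at 5 to 6, such as Nqo1, are understated too.

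Of 35453 rows, 12658 at 0 throughout and 26 named by dates were left out. limma 3.58.1 (R 4.3.3; variance trend, robust, two-sided, Benjamini-Hochberg over all tested genes) compared stress with control, without covariates, on 14098 genes with a mean of at least 4. The fit was run on simulated data with independent noise and known shifts. Those data lack the library differences that genes share here, so they do not show how the fit performs on these libraries. Positions are from GENCODE M21 (GRCm38). Members, lists and settings were chosen with earlier results of these data known. Besides all members, the 2 genes per list and direction with the smallest p and separate groups are named; exceptions are marked. Alternatives varied normalization, filter, variance model, a muscle covariate, a replicate block and single libraries; one of them was added after seeing the data. The miRNA table was not used.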

Additional observations from a re-analysis of the deposited data

How the results depend on the processing

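No member passed the threshold under any of 15 alternatives, whose smallest adjusted p for a member was 0.115, for Hmox1 without control replicate 2. Of 149 member differences under these alternatives 145 kept their direction (Nqo1 was not tested with a minimum mean of 6). Leaving out single libraries, Gclc ran from -0.072 to 0.014, Srxn1 from -0.19 to 0.041, Hmox1 from 0.56 to 0.99, and the members' median from -0.053 to 0.026; without control replicate 2 the median was 0.026. Over all genes, 3 were called higher and 2 lower. Lower calls were 5 after quantile normalization and 7 with a minimum mean of 6. Median centring over all 22769 kept genes gave 16 higher and 8 lower, turned Gclc to 0.020 and moved the median difference of all tested genes to 0.0476, so centring over the tested genes alone was added after seeing this result; it gave 2 higher and 2 lower and left every member's direction as it was. With a skeletal muscle covariate 0 genes were called in either direction. Leaving out single libraries gave 0 to 4 higher and 0 to 2 lower. The cause was not tested.

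Libraries with the same replicate number had correlations of deviations of -0.079, 0.082 and -0.018. Those with different numbers ran from -0.136 to 0.155, so these values do not show whether the numbers pair the libraries. With the replicate block, which leaves fewer degrees of freedom, 0 genes were called in either direction.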

Other observations

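NADPH oxidases are a main cellular source of superoxide. Of 12 listed subunits 9 passed the filter, and 3 stood higher and 6 lower in stress, with a median of -0.032. None was called in limma, and 1 had an unadjusted p under 0.05. The groups were separate for Nox4 alone among the 9, which was 0.085 ± 0.06 higher (adjusted p = 0.478).

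Over the 6 libraries, the genes whose values were most like those of Nfe2l2 by Pearson's correlation were Irgq (0.99), Ctnnal1 (0.99) and Arvcf (0.98). For Txnrd1 they were Trnt1, Ttc13 and Cbfb (0.997, 0.995 and 0.993). These are the best of 14098 genes over only 6 libraries and serve as a description.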
